A study of Cucumis sativus with 4 samples.

Results

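Among 5 cucumber genes known for sex determination and ethylene synthesis, CsACS11 and CsACO2 could be followed in female flower buds of wild type (WT) and round leaf (rl) plants. The set was chosen by identifier: Csa1G580750 (CsACS2, the M locus), Csa6G496450 (CsACS1G, the F locus), Csa2G353460 (CsACS11, the A locus), Csa6G511860 (CsACO2) and Csa4G290830 (CsWIP1, the G locus). Of these 5 identifiers, 2 are rows of the table of 17480 genes used here, namely those of CsACS11 and CsACO2. CsACS2, CsACS1G and CsWIP1 are not analysed here, and no level, high or low, is given for them. The gene names follow these assignments, since neither the table nor the RefSeq gene list (0 of 17480 identifiers matched) pairs the identifiers with names.

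Ethylene is made from S-adenosylmethionine in a pair of steps. ACC synthases (ACS) form the precursor 1-aminocyclopropane-1-carboxylate, commonly the limiting step, and ACC oxidases (ACO) turn it into ethylene. In cucumber this hormone favours female flowers: CsACS1G is tied to plants that bear only female flowers, CsACS2 to the arrest of stamens in female buds, and CsACS11 and CsACO2 to the development of the carpel, while the zinc finger protein CsWIP1 represses carpel development. CsACS11 is known from phloem cells connected to buds that become female, and acts upstream of CsWIP1. Loss of CsACS11 or of CsACO2 gives plants that bear only male flowers.

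Gene expression was measured by RNA sequencing of total RNA in 4 libraries of female buds, 2 from WT and 2 from rl plants. Plants of both genotypes carry the label cucumber 649 and are of a Southern China type, grown in a greenhouse without treatment. The rl plants are the round leaf mutant, which the study's title ties to CsPID, a gene named after the PINOID kinase of polar auxin transport; the labels give neither the allele nor the age of the plants or the stage of the buds. Each library held 17549219 to 18345095 reads over the listed genes, so 1 read was worth 0.0545 to 0.0570 counts per 1000000 reads (CPM). Between 2 libraries of a genotype the median gene differed by 0.17 (WT) and 0.22 (rl) on the log2(CPM + 1) scale, regardless of direction. Whether replicate libraries were made from different plants is not said in the labels, so the p-values reflect library-to-library spread that could be technical. The tissue label was not checked against marker genes, because the identifiers carry no names.

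CsACS11 (Csa2G353460, chromosome 2 by its identifier), the ACC synthase of the A locus, was detected in all 4 libraries, and its level differed more between replicates than between genotypes. It measured 16.7 CPM in WT replicate 1 and 6.15 CPM in WT replicate 2. In rl it measured 5.83 CPM in replicate 1 and 28.5 CPM in replicate 2. The rl libraries thus held both the lowest and the highest level, with both WT libraries between them.

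These levels rested on 298 and 108 reads in WT and on 107 and 516 reads in rl. The exact 95% Poisson intervals, which cover counting error only, were 14.9 to 18.8 CPM and 5.05 to 7.43 CPM for WT replicates 1 and 2. For rl replicates 1 and 2 they were 4.78 to 7.05 CPM and 26.1 to 31.1 CPM. The intervals of WT replicate 2 and rl replicate 1 overlapped each other, and those of WT replicate 1 and rl replicate 2 overlapped no other. The level of CsACS11 was therefore similar in a low library of each genotype and higher, by more than counting error, in the other library of each.

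CsACO2 (Csa6G511860, chromosome 6 by its identifier), the ACC oxidase required for carpel development, was also detected in all 4 libraries and was steady in WT. It measured 14.4 CPM in WT replicate 1 and 14.7 CPM in WT replicate 2, from 257 and 258 reads. In rl it measured 21.1 CPM in replicate 1 and 11.1 CPM in replicate 2, from 387 and 200 reads. Again the rl libraries lay on either side of both WT libraries, but here rl replicate 1 was the higher one.

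The Poisson intervals of CsACO2 were 12.7 to 16.3 CPM and 13.0 to 16.6 CPM in WT, and 19.0 to 23.3 CPM and 9.57 to 12.7 CPM in rl. The WT intervals overlapped almost wholly. That of rl replicate 1 lay above both of them, and that of rl replicate 2 ended just below that of WT replicate 1.

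**Figure D1:**
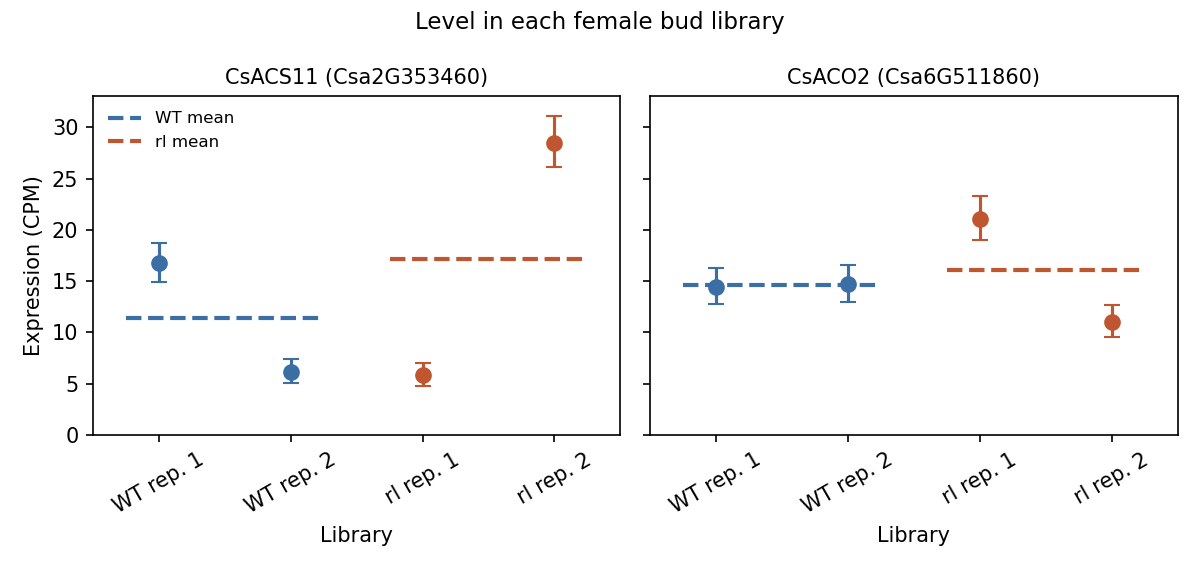
Level of CsACS11 (left) and CsACO2 (right) in each library, in CPM on a linear axis from 0. Points are libraries (blue WT, orange rl), bars are exact 95% Poisson intervals of the reads, and dashed lines are genotype means. In both genes the rl libraries lie on either side of the WT libraries, from 5.83 to 28.5 CPM for CsACS11 and from 11.1 to 21.1 CPM for CsACO2.

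The comparison of rl with WT asks whether transcripts of these genes differ in female buds of the mutant. The mean level of CsACS11 was 11.5 ± 7.49 CPM (SD, n = 2) in the WT libraries. In the rl libraries it was 17.2 ± 16.0 CPM (SD, n = 2), a ratio of 1.5 with overlapping genotypes. On the log2(CPM + 1) scale the difference of rl from WT was 0.33 (SE 0.75, limma adjusted p = 0.936), with a 95% interval of -1.52 to 2.19. This interval spans differences of more than 2-fold in either direction, so neither a rise nor a fall of that size could be told apart from no change.

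The mean level of CsACO2 was 14.6 ± 0.182 CPM (SD, n = 2) in the WT libraries. In the rl libraries it was 16.1 ± 7.10 CPM (SD, n = 2), a ratio of 1.10, again with overlap. Its difference was 0.07 on the log2(CPM + 1) scale (SE 0.30, limma adjusted p = 0.974), with a 95% interval of -0.69 to 0.82. This interval is narrower than that of CsACS11. Its SE borrows from the spread of all genes, while CsACO2 had a within-genotype SD of 0.44, and 90.6% of genes had a smaller one. An interval from the spread of CsACO2 alone was not computed. With all 4 libraries, limma's interval left out a change of 2-fold (1 on this scale) in either direction. That no longer held for a rise when a WT library was omitted, with intervals of -0.97 to 1.08 (without WT replicate 1) and -0.95 to 1.11 (without WT replicate 2).

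Of the 2 genes, 0 passed the limma test at an adjusted p of 0.05, and 0 passed in edgeR's quasi-likelihood test or in DESeq2 on the recovered reads. Among all 17480 genes, limma called 5 (0.0286%) and edgeR also called 5, in each case all lower in rl. DESeq2 called 291 (1.66%). A count of 0 among 2 genes does not depart from that background. The unadjusted limma p was 0.673 for CsACS11 and 0.832 for CsACO2. At an unadjusted p below 0.05 the count among the 2 genes was likewise 0 in each of the 3 tools with all 4 libraries. Over all 17480 genes the count at that threshold was 1393 in limma, 1416 in edgeR and 1291 in DESeq2. A count of 0 among 2 genes does not depart from this background either. The 2 log2 differences, 0.33 and 0.07, stand beside a median of -0.0092 over all genes. Neither gene separated the genotypes without overlap, which 39.5% of all genes did. With 2 libraries against 2, a random order separates them with a probability of 0.333, so that share is no measure of genes that differ. In bulk tissue, fewer cells that express a gene and less RNA per cell cannot be told apart.

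Which library was left out set the direction of the difference in CsACS11. Its log2 difference of rl from WT was 0.99 without WT replicate 1 and -0.32 without WT replicate 2. When rl replicate 1 was omitted it was 1.39, and when rl replicate 2 was omitted it was -0.72. For CsACO2 the values stayed at 0.06 and 0.08 without a WT library, and were -0.37 and 0.50 when rl replicates 1 and 2, respectively, were omitted. In 2 of these fits the limma 95% interval, before adjustment for the number of genes, lay above 0, at 0.19 to 2.59 for CsACS11 without rl replicate 1 and at 0.02 to 0.99 for CsACO2 without rl replicate 2. The limma adjusted p of these fits ran from 0.365 to 1 for CsACS11 and from 0.363 to 1 for CsACO2.

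**Figure D2:**
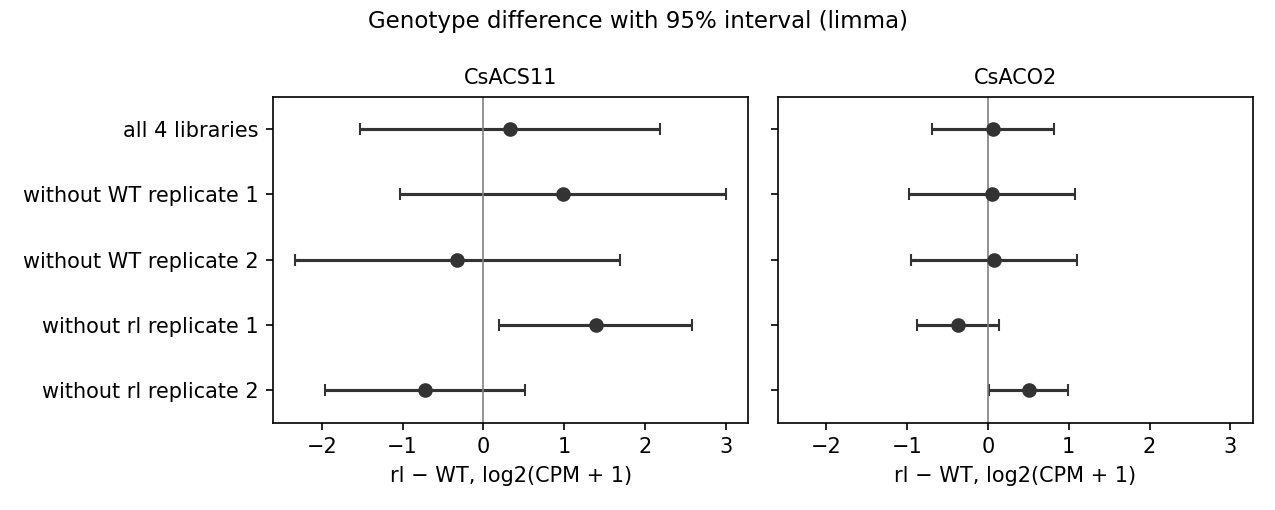
Difference of rl from WT on the log2(CPM + 1) scale (x axis) for CsACS11 (left) and CsACO2 (right), with all 4 libraries and with each library left out in turn; bars are limma's 95% intervals before adjustment for the number of genes. The estimates for CsACS11 run from -0.72 to 1.39 and those for CsACO2 from -0.37 to 0.50, on both sides of 0.

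The spread of CsACS11 between replicates was among the widest of all genes. Its levels differed 2.72-fold between the WT libraries and 4.89-fold between the rl libraries. On the log2(CPM + 1) scale, 109 of 17480 genes (0.624%) differed more between the WT libraries, and 69 (0.395%) differed more between the rl libraries. In both pairs at once, 13 genes differed more. Among the 5399 genes with a mean level within 2-fold of that of CsACS11, itself included, 43 differed more between the WT libraries and 23 between the rl libraries, so its spread was also wide for genes of similar abundance.

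The direction of this spread was opposite in the 2 genotypes. CsACS11 was higher in replicate 1 of WT (by 1.31 on the log2 scale) and higher in replicate 2 of rl (-2.11 for replicate 1 minus replicate 2). Over all genes, 84 had a difference of 1 or more on the log2(CPM + 1) scale in both pairs, and 18 of them, CsACS11 included, were higher in WT replicate 1 and in rl replicate 2. The 18 leave out genes opposite in the other way, higher in WT replicate 2 and in rl replicate 1. The within-genotype SD of CsACS11 was 1.24 on the log2 scale, against a median of 0.17 over all genes, and 99.7% of genes had a smaller one. Markers of bud stage, tissue makeup or RNA quality could not be formed from the identifiers, so their part in this spread was not tested.

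CsACO2 combined a close WT pair with a wider rl pair. Its levels differed 1.02-fold between the WT libraries, and 92.1% of genes differed more. Between the rl libraries they differed 1.91-fold, and 5.61% of genes differed more. Its within-genotype SD was 0.44 on the log2 scale, and 90.6% of genes had a smaller one.

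**Figure D3:**
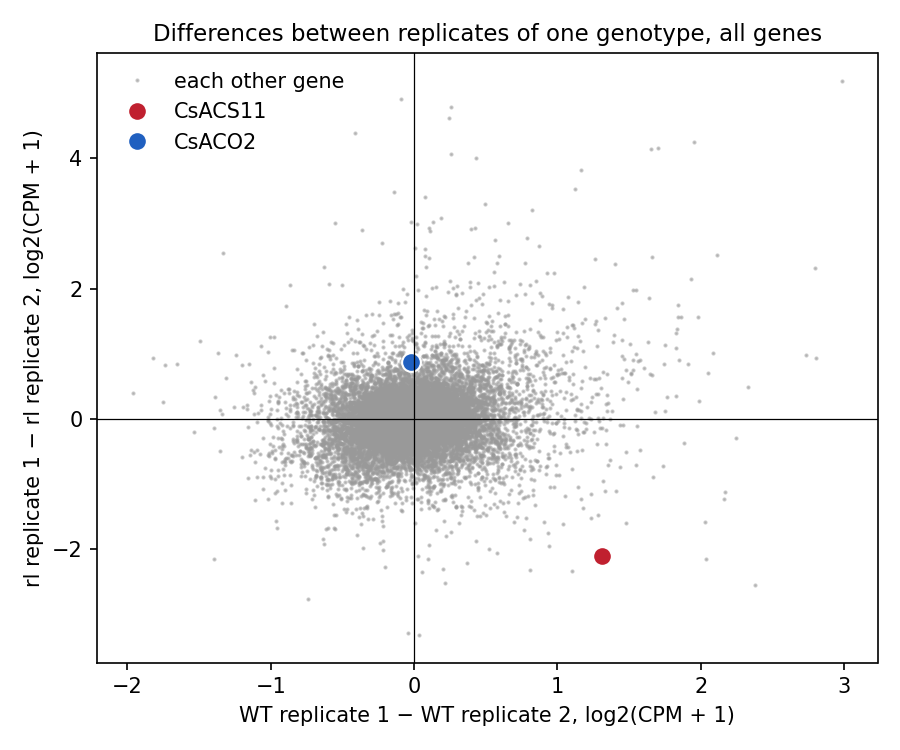
Difference between replicates 1 and 2 of WT (x axis) and of rl (y axis) for each gene, on the log2(CPM + 1) scale. Grey points are the other genes, red is CsACS11 and blue is CsACO2. CsACS11 lies far from the centre, at 1.31 and -2.11, and CsACO2 lies at -0.02 and 0.87.

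CsACS11 and CsACO2 catalyse successive steps, and their levels relative to each other changed from library to library. Levels are per 1000000 reads and not per length, and no transcript length was matched to the identifiers, so which of the genes has more transcript is not stated; the ratio of CsACS11 to CsACO2 is compared only between libraries, where length cancels. The ratio of CPM was 1.16 in WT replicate 1 and 0.419 in WT replicate 2. It was 0.276 in rl replicate 1 and 2.58 in rl replicate 2. In rl, the library with the higher CsACS11 had the lower CsACO2, while in WT CsACO2 was nearly the same in both libraries.

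As log2 of the ratio of CPM + 1, the genotype means were -0.47 ± 0.94 in WT and -0.20 ± 2.11 in rl (SD, n = 2 each). The difference of 0.27 was smaller than either SD (exact two-sided permutation test, p = 1; 2 libraries against 2 cannot go below 0.333). The balance between the 2 transcripts was therefore not distinguishable between the genotypes at this number of libraries.

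Within the libraries, both genes ranked in the lower or middle range of the listed genes by CPM, a scale that is not per length. CsACS11 stood at or above 37.8% of the genes in WT replicate 1 and 19.2% in WT replicate 2. In rl replicates 1 and 2 it stood at or above 18.2% and 51.9%. CsACO2 moved less, at or above 34.4% and 34.7% of the genes in WT and 44.0% and 28.6% in rl. Every level was far above 3 reads, which correspond to 0.164 to 0.171 CPM, so detection did not limit these comparisons.

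The gene whose profile over the 4 libraries was nearest to that of each member was then sought among genes with a mean level within 2-fold, by the Euclidean distance of log2(CPM + 1) centred on each gene's mean. For CsACS11 the nearest of 5398 genes was Csa4G377750, with 19.2 and 8.83 CPM in the WT and 9.76 and 32.0 CPM in the rl libraries. Its distance was 0.41, against a median of 1.82. The next gene lay at 0.60. The distance is not scaled for amplitude, so a gene of wide spread such as CsACS11 lies far from most others.

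For CsACO2 the nearest of 5556 genes was Csa4G075200, with 18.4 and 19.7 CPM in the WT and 28.6 and 14.2 CPM in the rl libraries. Its distance was 0.0784, against a median of 0.72. The next gene lay at 0.0794, so Csa4G075200 was nearly tied and hardly stands out. CsACO2 varied less over the libraries, and small distances follow in part from that. Neither nearest gene passed the limma test (adjusted p = 0.898 for Csa4G377750 and 0.971 for Csa4G075200). Each was chosen for its likeness to a member that did not pass, so this largely follows from the choice. With 4 libraries, likeness of profile is a description only.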

How the data were processed

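Female bud RNA was sequenced in 4 libraries, grouped by title into WT and rl replicates 1 and 2. The tools were HISAT and HTSeq, per the submitters' processing notes; not given in the sources used here are their versions, the build, the gene models and strand, so reads shared with close copies or overlapping genes cannot be recognised. ACC synthases and ACC oxidases are gene families, so such sharing could touch both genes. The authors deposited CPM values, and each deposited column sums to 1000000 over the listed genes; every gene had at least 1.01 CPM in 2 libraries. In each library 100% of values were whole multiples of the smallest value within 1e-06 reads, so reads were recovered.

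Values were transformed to log2(CPM + 1) and tested two-sided in R 4.3.3 with limma 3.58.1 (eBayes with trend) over all 17480 genes, with Benjamini-Hochberg adjustment at 0.05; all genes passed the filter of 1 CPM in 2 libraries. edgeR 4.0.16 and DESeq2 1.42.0 on recovered reads, other pseudocounts, filters, scalings, variance models, the replicate block, a threshold of 0.10 and leaving out each library were alternatives. The 3 tests were tested on simulated counts. The members were chosen with earlier results of these data known. Named genes were the listed members and, for each, its nearest gene by profile. Lists of pathway and marker genes could not be formed without names.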

Additional observations from a re-analysis of the deposited data

How the results depend on the processing

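Neither CsACS11 nor CsACO2 passed the threshold in any of 16 alternatives, with adjusted p from 0.365 to 1 and from 0.363 to 1. The filters, variance models, replicate block and threshold of 0.10 cannot move a gene's log2 difference, so those alternatives kept its direction by design. Counting them, the direction was kept in 14 of 16 for CsACS11 and in 15 of 16 for CsACO2. It reversed when a library was left out: to -0.32 for CsACS11 without WT replicate 2, to -0.72 without rl replicate 2, and to -0.37 for CsACO2 without rl replicate 1 (log2 differences; range over the left-out libraries -0.72 to 1.39 for CsACS11 and -0.37 to 0.50 for CsACO2). The reversals without an rl library follow because the rl libraries lay on either side of both WT libraries. In that of CsACS11 without WT replicate 2, the remaining WT library lay above the mean log2 level of the rl libraries. With 1 library left in a genotype, it was assumed to vary like the other genotype's pair. The genotype difference in the log2 ratio of CsACS11 to CsACO2 ran from -1.23 (without rl replicate 2) to 1.76 (without rl replicate 1), and was -0.40 without WT replicate 2. Over all genes the calls were 5 in the main test, 0 to 125 with a library left out, 291 in DESeq2, 28 at a threshold of 0.10 and 117 with the replicate block; the cause was not tested. In this balanced layout the replicate block cannot move the log2 differences of 0.33 and 0.07, only their error (limma adjusted p = 0.910 and 0.959). No label says that equal replicate numbers share a plant or a day, and whether they do was not tested. Over all genes, the correlation of the WT with the rl replicate difference was 0.18, with 2 pairs only. CsACS11 moved in opposite directions in these pairs. Each level of the 2 genes rested on at least 107 reads; what the number of libraries and depth each contribute to the limits was not tested.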
